A study of Oryctolagus cuniculus with 4 samples.

Results

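Ligament from a level of concentrated mechanical stress was set directly against ligament from fused levels in a rabbit surgery model, using 2 of the 4 arrays of the study. The ISC array (intervertebral stress concentration) came from the ligamentum flavum of L3/4, and the fused array from that of L2/3 and L4/5. Per the labels, male rabbits aged 18 weeks had the muscle over L3/4 resected and the neighbouring levels fused posterolaterally with instrumentation, and tissue is labelled as taken at 34 weeks, 16 weeks after the operation. The L3/4 control array and the adjacent-level control array (L2/3 and L4/5), also from males of 34 weeks, give the background at the same lumbar levels. The control labels also speak of 16 weeks after surgery and carry the same treatment text, so the sources used here do not settle if these rabbits had the operation. These sources do not say whether RNA of several animals or of both fused levels was pooled, or whether different arrays hold tissue of the same animals. Lumbar level, stress or its relief, and local surgery differ together between the 2 arrays and cannot be told apart.

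The ligamentum flavum joins the arches of neighbouring vertebrae and is rich in elastic fibres, with collagen, small proteoglycans and sparse fibroblast-like cells between them. Mechanical load is known to act on such cells through their matrix contacts, and thickening of this ligament narrows the spinal canal. Fusion removes movement at a segment and shifts motion and load to the free segment beside it.

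Every group has 1 Agilent array of a single colour, and the 4 arrays share 1 slide. No ratio below therefore has an error or a test, the spread between animals is not known, and the small number of arrays limits precision. A level is the log2 signal of a probe relative to the 75th percentile of its array, and a ratio is the level on the ISC array minus that on the fused array, so that a positive value means a higher signal on the ISC array. Of 22904 features (named genes, or accessions and probe names where no name was found), 14562 were well above background on both arrays and are called measured. A difference of at least 2-fold, which is 1 on the log2 scale, is used as a fixed size and not as a test. By this size 1017 features (6.98%) were higher and 1130 (7.76%) lower on the ISC array, with a median ratio of 0.049 over all features. Counts of list members below are to be read beside these shares, and the lists are small. Of these calls 47.4% were higher, and with normexp, a background correction that pulls dim signals together, 36.2% of 702 were. Among the 1001 measured genes with a name, 73 (7.29%) were higher and 94 (9.39%) lower. Levels of matrix genes known from ligament were high on both arrays: COL1A2, a chain of type I collagen, stood at 8.79 and 7.80, and OGN, the small proteoglycan osteoglycin, at 7.72 and 8.27, on the ISC and the fused array respectively. TNMD, tenomodulin, a membrane protein that marks tendon and ligament, was clearly above background on the ISC array and not on the fused array. Since tissue was measured in bulk, fewer cells of a type and less RNA per cell cannot be told apart.

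The largest differences lay in one direction, with signal higher on the fused array. At 4-fold or more, 118 features (0.81%) were higher on the ISC array and 404 (2.77%) were lower. At 8-fold or more, 15 (0.103%) were higher and 248 (1.7%) lower. At 16-fold or more, 2 features (0.0137%) were higher and 175 (1.2%) lower. Features without a gene name can stand for the same transcript several times, so these counts are of features and not of genes. Between the control arrays, set against each other in the same order of lumbar levels, the counts at 16-fold or more were 1 higher (0.00761%) and 29 lower (0.221%) in the L3/4 control.

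**Figure D1:**
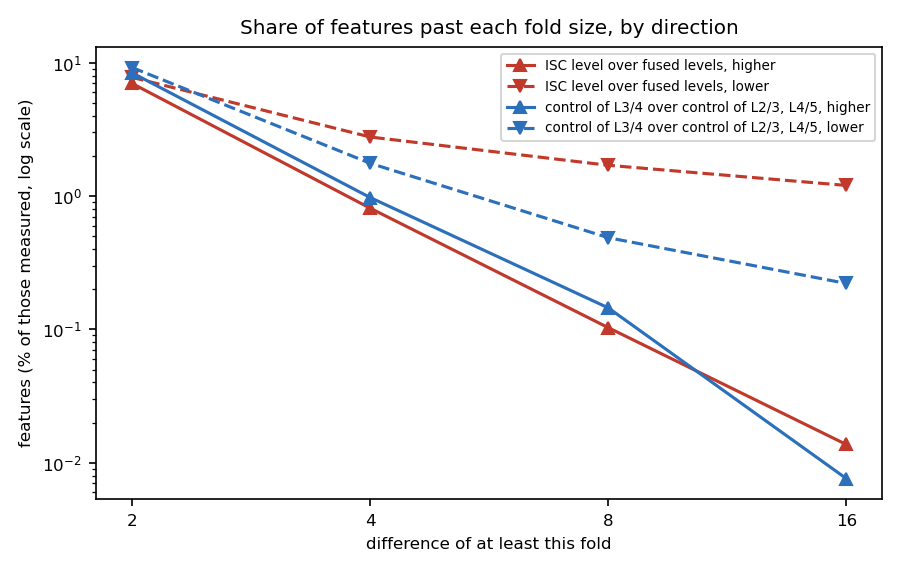
Share of measured features (%, log scale) that differ by at least 2-, 4-, 8- and 16-fold, for the ISC array over the fused array (red) and the L3/4 control over the adjacent-level control (blue), with solid lines for higher and dashed lines for lower. At 2-fold the red lines start close together, at 6.98% and 7.76%, and at 16-fold they end at 0.0137% and 1.2%.

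Genes of neutrophils and their granules supplied 5 of the 15 named genes with the lowest ratios (MCP2, S100A9, CAMP, SRGN and BPI), and loci without a descriptive name another 4. CAMP, which encodes the antimicrobial cathelicidin, had a level of −0.17 on the ISC array, 5.15 on the fused array, 0.59 in the L3/4 control and −0.99 in the adjacent-level control. The fused array stood far above the other 3. The ratio of CAMP was −5.32, or 39.9-fold, and its 5 measured probes ranged from −5.38 to −5.23. MCP2, a defensin of macrophages and neutrophils, had levels of 2.11, 7.83, 2.99 and 1.69 on the arrays in the same order, a difference of 52.9-fold. S100A9, a subunit of calprotectin, had levels of −1.92, 3.43, −0.79 and −1.92, a difference of 40.8-fold. BPI, a protein of neutrophil granules that kills bacteria, had levels of −1.52, 2.76, −0.68 and −1.36. In these 4 genes the fused array was the highest array and the L3/4 control the next. With normexp the ratio was −4.39 for CAMP, −3.70 for S100A9 and −2.90 for BPI.

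The 4 loci have only locus symbols in the RefSeq table used here, and on each the fused array was the highest and the L3/4 control the next. LOC100009134, which had the lowest ratio of all named genes at −6.19, stood at 0.83 on the ISC array and 7.02 on the fused array, and its 5 probes ranged from −6.22 to −6.11. LOC100009136, listed in RefSeq under the synonym NP-5, had a ratio of −4.93, LOC100009135 one of −5.05 and LOC100009166 one of −4.98. NP-5 and NP2, a synonym of MCP2, are names of rabbit defensins, a family of related genes. The probe of one defensin may read signal of another, so values of defensin genes are uncertain as to the copy.

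Not every gene of the neutrophil and marrow list followed. Of 13 named members 12 were measured, with a list median of −1.92 beside 0.049 over all features. At 2-fold or more, 8 were lower on the ISC array and 1 higher, beside 7.76% and 6.98% of all features. SRGN, the proteoglycan of secretory granules, had a ratio of −4.51 and CYBB, the catalytic subunit of the phagocyte oxidase, one of −2.41. CXCR2, a chemokine receptor of neutrophils, was at −1.43. S100A11, a calcium-binding protein found in many cells, was at −0.77, the second chemokine receptor CXCR1 at −0.03 and the oxidase subunit NCF1 at −0.0019. MMP9, gelatinase B, went the other way at 1.29, and was not well above background in either control. FPR1, a receptor for bacterial peptides, was well above background on the fused array alone, which was at least 5.51-fold higher. The summed level of the 13 genes (log2 of their summed signals) was 5.47 on the ISC array, 8.56 on the fused array, 5.80 in the L3/4 control and 5.55 in the adjacent-level control, so that the fused array stood apart from the other 3 arrays. With normexp background correction the list median was −0.81, and CXCR2 at −0.89, CYBB at −0.58 and MMP9 at 0.24 were under 2-fold.

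**Figure D2:**
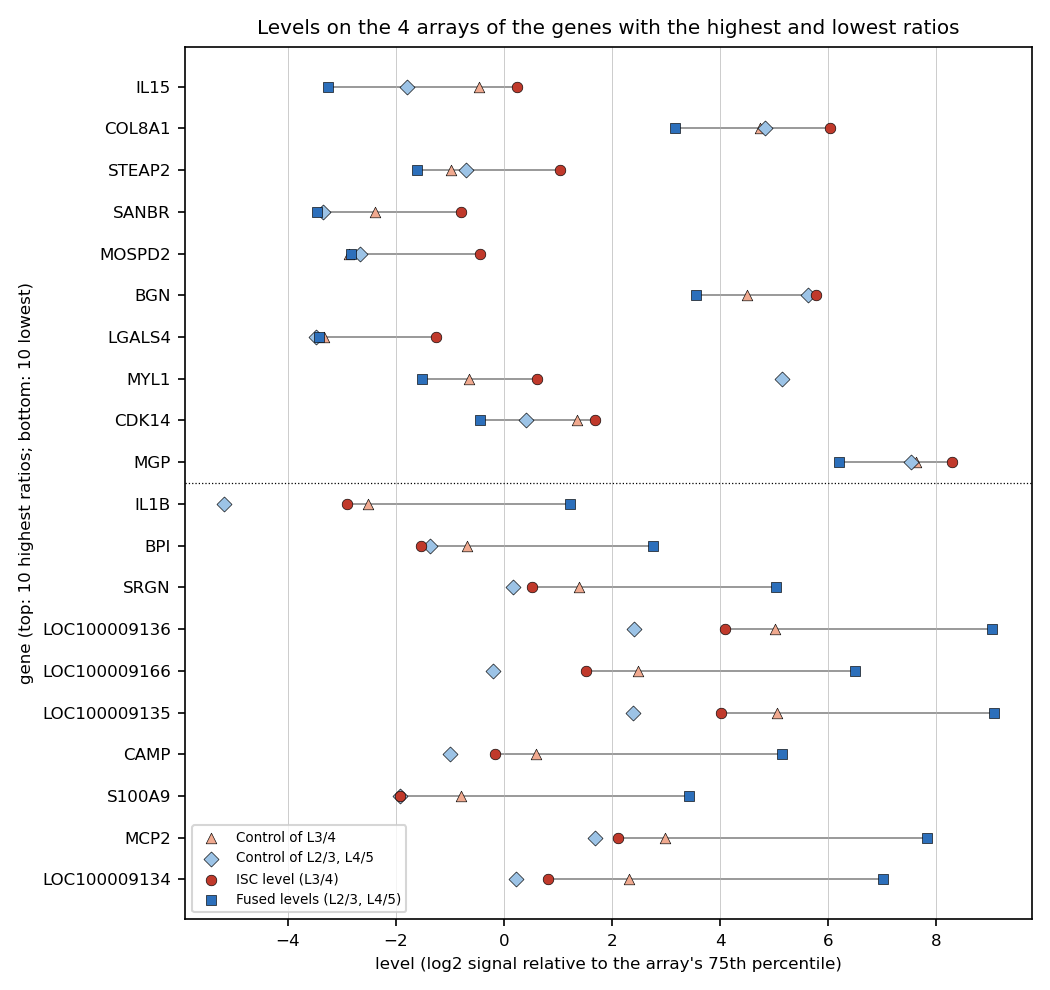
Levels (log2 signal relative to the 75th percentile of each array) of the 10 named genes with the highest ratios (top) and the 10 with the lowest (bottom) on the 4 arrays, 1 marker an array, with a line joining the ISC array and the fused array. In the lower part the fused array is the rightmost marker for every gene shown, and in the upper part the ISC array is the rightmost for 9 of 10.

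Other genes of white cells were among the 15 lowest ratios. AOAH, an enzyme that inactivates bacterial endotoxin, stood at −2.64 on the ISC array, 0.45 on the fused array, −2.76 in the L3/4 control and −2.03 in the adjacent-level control. The fused array alone was high, and the ratio of −3.09 was −1.32 with normexp. PRKCB, a protein kinase C isoform abundant in B cells, stood at −2.19, 0.84, 0.39 and −2.68 in that order, so the fused array and the L3/4 control were both high. Its ratio of −3.03, which was −1.54 with normexp, thus has a counterpart of 3.07 between the controls. SERPINB10, a serpin of blood-forming cells, had a ratio of −2.69 and one of −0.93 with normexp.

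The remaining lists of white cells differed less. Of 6 measured lymphocyte genes 1 was 2-fold lower or more, PRKCB, beside 7.76% of all features, and the median was −0.48. The T cell genes were under 2-fold in both directions: CD3E at −0.51, CD4 at −0.51, CD28 at −0.45, CTLA4 at 0.16 and CD5 at 0.21. The second probe of CD28 was at 0.73 and the lowest of CTLA4 at −1.42. Of 6 measured macrophage and monocyte genes 1 was at least 2-fold lower, TLR4, the endotoxin receptor, at −1.01, while the median was −0.40 and CD14, its co-receptor, was at −0.85. The scavenger receptor MSR1 was at −0.15, TLR2 at −0.12, the costimulator CD80 at −0.65 and SPP1, osteopontin, at 0.84. TLR4 was at −0.97 in the authors' value table and −0.46 with normexp. All 3 measured genes of antigen presentation by MHC class II had negative ratios, 2 of them at 2-fold: the peptide-loading subunits RLA-DMA at −1.38 and RLA-DMB at −1.35, and the DR alpha chain RLA-DR-ALPHA at −0.85. RLA-DMA stood at 2.10 on the ISC array, 3.48 on the fused array, 2.39 in the L3/4 control and 1.52 in the adjacent-level control. The probes of RLA-DMB ranged from −1.35 to −0.62, its mean over probes was −0.96, and with normexp it was at −0.80.

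Red cell genes were lower on the ISC array as well. HBA, an alpha globin chain, had levels of 7.76 on the ISC array, 9.17 on the fused array, 8.65 in the L3/4 control and 7.07 in the adjacent-level control, and HBB2, a beta globin chain, of 7.76, 9.17, 8.56 and 7.11. The ratios were −1.40 and −1.41, and between the controls they were 1.59 and 1.45. CA2, a carbonic anhydrase of red cells and other cells, had a ratio of −2.15, with 4 probes from −2.36 to −2.11, and was at −0.70 with normexp. All 3 measured erythroid genes were thus at least 2-fold lower, beside 7.76% of all features, around a median of −1.41. The summed level of the list was 8.76 on the ISC array, 10.2 on the fused array, 9.61 in the L3/4 control and 8.09 in the adjacent-level control. The part of blood and marrow cells in the ratios of other genes was not tested.

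Signals between inflammatory cells went in both directions. IL1B, interleukin-1 beta, a fever-inducing cytokine of myeloid cells, had levels of −2.90 on the ISC array, 1.23 on the fused array and −2.52 in the L3/4 control, and was not well above background in the adjacent-level control. The fused array was the highest array, and the ratio was −4.14, or 17.6-fold, with a second probe at −3.33. With normexp it was −1.78. IL1RN, the antagonist of the same receptor, had levels of −0.73, 1.97, −0.01 and −0.82 and a ratio of −2.69, and IFNG, interferon gamma, had levels of −0.31, 2.28, −0.94 and −0.14 and a ratio of −2.59. In both the fused array was the highest array, and with normexp the ratios were −1.83 and −1.91.

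IL15, a cytokine that sustains natural killer and memory T cells, had the highest ratio of all named genes. Its levels were 0.24 on the ISC array, −3.25 on the fused array, −0.45 in the L3/4 control and −1.79 in the adjacent-level control. The ISC array was the highest and the fused array the lowest array, the ratio was 3.49, or 11.2-fold, and 1 probe measured it. With normexp the ratio was 1.30. CCL2, a chemoattractant of monocytes, had levels of −0.24, −1.62, −1.78 and −0.62 and a ratio of 1.37, with 4 probes from 1.37 to 2.20, and with normexp it was at 0.62. CXCL8, interleukin-8, the main chemoattractant of neutrophils, was at −0.89 by its brightest probe, while 4 of its 7 probes were at least 2-fold lower and the lowest was at −1.68. LIF was at −0.84, PTGS2, cyclooxygenase-2, at −0.67 and IL18 at 0.34. In all, 9 of 18 named cytokine and chemokine genes were measured, with a median of −0.84. Of these 2 were at least 2-fold higher and 3 lower, beside 6.98% and 7.76% of all features. IL6, TNF, IL10, CCL4 and CCL7 were not well above background on either array.

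Of 3 measured receptors of prostaglandin E, 2 had lower signal on the ISC array. PTGER4 stood at −0.84 on the ISC array, 0.97 on the fused array, 1.14 in the L3/4 control and 0.03 in the adjacent-level control, and its 3 probes ranged from −2.67 to −1.12. PTGER3 stood at −1.33, 0.42, −1.18 and −1.26, with the fused array alone high, whereas PTGER2 was at 0.08. With normexp PTGER4 was at −1.18 and PTGER3 at −1.02. PTGDS, a prostaglandin D synthase, was at −1.25, and at −0.46 with normexp. The list of prostaglandin, kinin and pain genes had 3 of 6 measured members at least 2-fold lower, beside 7.76% of all features. It had 0 higher and a median of −0.96. BDKRB1, the inducible bradykinin receptor, was well above background on every array but the fused one, and the ISC array was at least 10.2-fold higher. Among acute-phase genes 1 of 5 was at least 2-fold lower, LBP, the carrier of endotoxin, at −1.37, and at −0.37 with normexp. HP, haptoglobin, was at −0.84, TF, transferrin, at −0.82, and SAA3, a serum amyloid, at 0.47, for a median of −0.82.

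Endothelial genes leaned to the fused array without most of them reaching 2-fold. VCAM1, an adhesion molecule that binds leukocytes to activated endothelium, had levels of 0.56 on the ISC array, 2.72 on the fused array, 0.45 in the L3/4 control and 0.51 in the adjacent-level control. Only the fused array was high, and the ratio was −2.16. Of its 5 probes 2 were at least 2-fold lower, and the others lay between −0.95 and −0.79. SOX17, a transcription factor of arteries, was at −1.05, and at −0.24 with normexp. ACE, the enzyme that forms angiotensin II, was at 1.67 but dim, and at 0.33 with normexp. Of 9 measured members 2 were lower and 1 higher by at least 2-fold, beside 7.76% and 6.98% of all features. Their median was −0.53. KDR, the main receptor of vascular endothelial growth factor, was well above background on the ISC array and not on the fused array. It was dim, at −3.09 on the ISC array, which was at least 1.44-fold higher. The L3/4 control was the highest array for KDR at −1.78, and the adjacent-level control stood at −4.16.

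Fat cell genes had lower signal on the ISC array. LPL, lipoprotein lipase, which releases fatty acids from circulating lipoproteins, had levels of 0.69 on the ISC array, 2.81 on the fused array, −1.74 in the L3/4 control and 0.26 in the adjacent-level control. PPARG, the transcription factor of fat cell formation, had levels of −1.37, 0.40, 0.63 and −2.23. For LPL the fused array was highest, and for PPARG the fused array and the L3/4 control were both high. The ratios were −2.12 and −1.77. LEP, leptin, was at −1.25, with levels of −2.30 and −1.04, and ADIPOQ, adiponectin, was at −0.99, with levels of 2.49 and 3.48. Thus 3 of 4 measured adipocyte genes lay 2-fold lower or more, beside 7.76% of all features, for a median of −1.51. With normexp the median was −0.89, with PPARG at −0.91 and LEP at −0.49. SLC2A4, the insulin-responsive glucose transporter GLUT4 of fat and muscle, was lower at −1.73, with 5 of 6 probes at 2-fold, and was at −0.72 with normexp. APOD, apolipoprotein D, a carrier of small lipids made by resting fibroblasts, had levels of 3.09, 5.32, 1.79 and 2.13, with the fused array highest, and a ratio of −2.23. The 6 other measured lipoprotein and cholesterol genes were under 2-fold, among them VLDLR at −0.25 and SCARB1 at −0.91, for a median of 0.028.

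**Figure D3:**
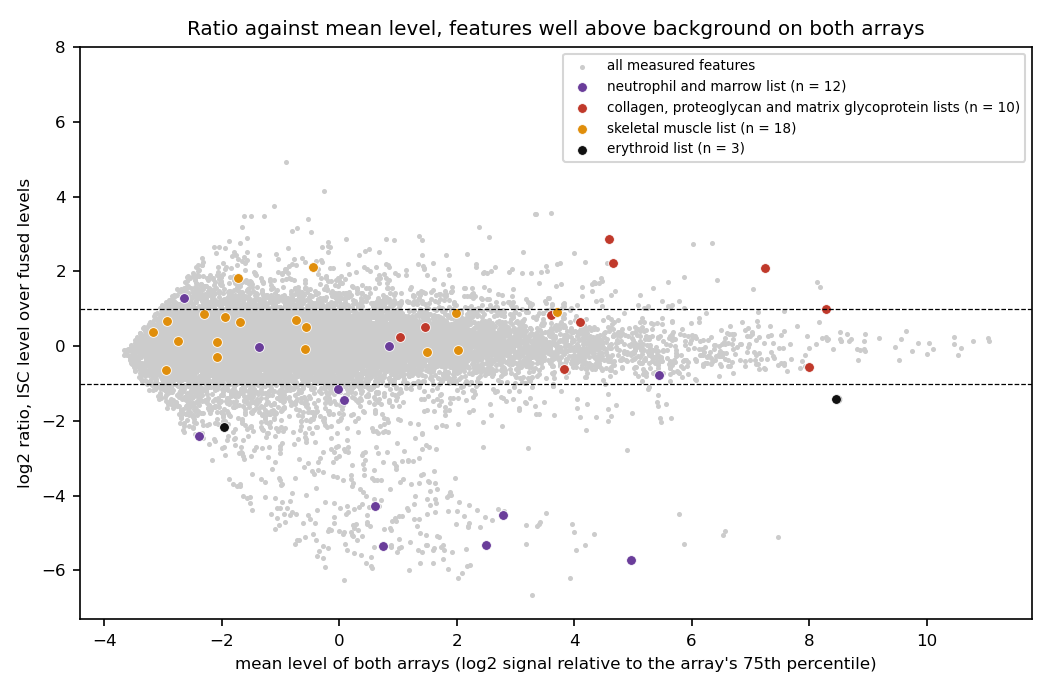
Log2 ratio of the ISC array over the fused array against the mean level of both arrays for all 14562 measured features (grey), with members of 4 groups of gene lists in colour and dashed lines at 2-fold. Neutrophil genes (purple) reach below −5 at middle and high levels, while the collagen, proteoglycan and matrix glycoprotein genes (red) lie from −0.60 to 2.87.

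Several bright genes of the extracellular matrix had higher signal on the ISC array. COL8A1, which encodes a network-forming collagen of vessel walls and remodelling tissue, had levels of 6.03 on the ISC array, 3.16 on the fused array, 4.73 in the L3/4 control and 4.84 in the adjacent-level control. The controls lay close together, with the ISC array above and the fused array below them. The ratio was 2.87, or 7.33-fold, from 1 probe, and ranged from 2.77 to 3.09 over the processing alternatives. MGP, matrix Gla protein, an inhibitor of tissue calcification, had levels of 8.29, 6.20, 7.63 and 7.54, again with the controls between, and its 9 probes gave ratios from 2.09 to 2.57. BGN, the small proteoglycan biglycan, had levels of 5.77, 3.55, 4.50 and 5.63, so that the ISC array and the adjacent-level control were both high, and a ratio of 2.22.

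Type I collagen stood near the size used here. COL1A2 had levels of 8.79 on the ISC array, 7.80 on the fused array, 7.90 in the L3/4 control and 8.42 in the adjacent-level control, and its ratio was 0.99 by the brightest probe. Of its 11 probes 9 were at least 2-fold higher, over a range of 0.97 to 1.29, so the gene lies on both sides of 2-fold by the choice of probe. COL2A1, the chain of cartilage collagen, depended on the probe much more. Its brightest probe had levels of 1.73, 1.21, 1.81 and 1.95 on the arrays in that order and a ratio of 0.52. The 4 other measured probes gave ratios from 2.76 to 3.18, and on each of them the fused array was the lowest of the 4 arrays. As an example, one had levels of 1.39 on the ISC array, −1.47 on the fused array, 1.10 in the L3/4 control and 2.30 in the adjacent-level control. As the mean over its probes COL2A1 was at 2.43, and the median of the collagen list was 1.79 in place of 0.76. Of the 4 measured genes of this list 1 was at least 2-fold higher and 0 lower, the remaining one being P4HB, a subunit of the enzyme that hydroxylates collagen, at 0.25, and in all 4 the fused array was the lowest array.

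Small proteoglycans did not share one direction. LUM, lumican, which sets the thickness of collagen fibrils, was at 0.65, with levels of 4.43 and 3.78 and 4 probes from 0.65 to 0.79. DCN, decorin, was at −0.60, with 6 probes from −1.02 to −0.48, and OGN at −0.55, with 5 probes from −1.09 to −0.50. Together with BGN this gave 1 of 4 measured members at least 2-fold higher, 0 lower and a median of 0.05. CNMD, chondromodulin, a relative of tenomodulin that blocks vessel growth, was at 0.79. TNMD itself had a level of −2.03 on the ISC array, −1.94 in the L3/4 control and −1.88 in the adjacent-level control, and on the fused array it was not well above background, so that the ISC array was at least 3-fold higher. Over the tendon and ligament list 1 of 6 measured members was at least 2-fold higher, 0 were lower and the median was 0.72. In 4 of the 6 the fused array was the lowest of the 4 arrays, and in the other 2, DCN and OGN, the ISC array was. The 3 measured cartilage genes, COL2A1, CNMD and the parathyroid hormone receptor gene PTH1R at 0.44, had a median of 0.52, or 0.11 with normexp. No gene of the elastic fibre list could be named on the array, so elastin and the fibrillins are not analysed here.

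**Figure D4:**
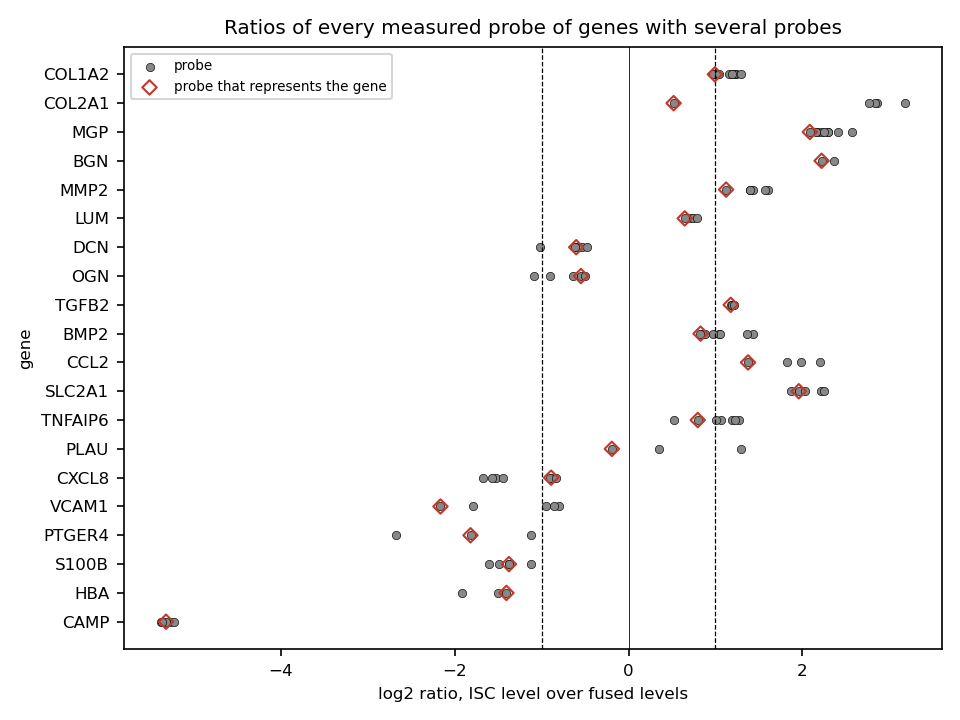
Log2 ratio of the ISC array over the fused array for each measured probe of 20 genes with several probes (grey), with the probe that represents the gene outlined in red and dashed lines at 2-fold. The probes of CAMP and TGFB2 lie close together, while those of COL2A1 split into 1 at 0.52 and 4 from 2.76 to 3.18.

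Enzymes that degrade matrix and their inhibitors showed smaller differences. MMP2, gelatinase A, made by fibroblasts, had levels of 3.85 on the ISC array, 2.73 on the fused array, 3.37 in the L3/4 control and 3.43 in the adjacent-level control. The controls were alike, with the ISC array above and the fused array below, and all 6 probes were at least 2-fold higher on the ISC array, from 1.12 to 1.61. CTSK, the collagen-cleaving cathepsin K, was at 0.91, with levels of 3.68 and 2.77. The collagenases MMP1 and MMP13 were at 0.73 and −0.10, stromelysin MMP3 at 0.14, and the plasminogen activators PLAT and PLAU at −0.12 and −0.19, the latter with a probe at 1.29. The list had 2 of 8 measured members at least 2-fold higher (MMP2 and MMP9), beside 6.98% of all features. It had 0 lower and a median of 0.43, which was 0.09 with normexp. MMP12, macrophage elastase, was well above background on the ISC array alone, but dim at −3.42 and at least just 1.15-fold above the fused array. The smallest level called well above background was −3.15 in the L3/4 control and −3.22 in the adjacent-level control. An equal level would thus not have been called in either control. MMP12 itself stood below these limits, at −5.38 in the L3/4 control and −5.36 in the adjacent-level control. TIMP1, an inhibitor of these enzymes, had levels of 3.07, 1.77, 2.02 and 3.03, with the ISC array and the adjacent-level control alike, and a ratio of 1.29. TIMP4 went the other way at −1.66, with levels of −1.07 and 0.58, and −0.93 with normexp. TIMP3 was at 0.53 and CST3, cystatin C, at 0.28. The inhibitor list thus had 1 of 4 measured members higher and 1 lower, beside 6.98% and 7.76% of all features. Its median was 0.41.

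Genes of mineralisation and of glycosaminoglycan synthesis had positive ratios for the most part. ENPP1, which makes pyrophosphate, an inhibitor of mineral growth, had levels of 4.17 on the ISC array, 3.08 on the fused array, 3.01 in the L3/4 control and 3.69 in the adjacent-level control. Its 2 probes gave 1.10 and 0.90, with a mean of 0.997. SPP1, a phosphoprotein of bone and of macrophages, was at 0.84, and with MGP it made up the 2 measured genes of the matrix glycoprotein list. With MGP, CTSK and PTH1R, the bone and calcification list had 2 of 5 measured members at least 2-fold higher, beside 6.98% of all features. It had 0 lower and a median of 0.91. Of 5 measured genes of sulphation and hyaluronan 0 reached 2-fold, with a median of 0.69, or 0.26 with normexp. UGDH, which makes the sugar precursor of glycosaminoglycans, was at 0.73 and PAPSS2, an enzyme of sulphate activation, at −0.13. TNFAIP6, a hyaluronan-binding protein, was at 0.80, while 5 of its 7 probes were at 2-fold.

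Growth factor ligands differed gene by gene. TGFB2, a transforming growth factor beta that drives matrix synthesis, had levels of 0.97 on the ISC array, −0.20 on the fused array, −0.29 in the L3/4 control and 0.75 in the adjacent-level control. The ISC array and the adjacent-level control were high, the 3 probes lay from 1.18 to 1.21, and the value was 0.82 with normexp. BMP2, a bone morphogenetic protein, was at 0.83, with 4 of 8 probes at 2-fold, and BMP4 at −0.95, with 5 probes from −1.04 to −0.92. MSTN, myostatin, was at 0.66 and the receptor gene TGFBR2 at −0.17. The list median was 0.66, or 0.23 with normexp, with 1 of 5 members at 2-fold. FGF1, an acidic fibroblast growth factor, was at 1.79 from dim levels of −1.15 and −2.93, and at 0.49 with normexp. FGF2 was at 0.43, FGF7 at −0.47 and the receptor gene FGFR2 at 0.10. None of the 5 measured members of the list of other growth factors reached 2-fold, with KITLG, stem cell factor, at −0.94, HGF at −0.39, GHR at −0.20, IGF1 at −0.18 and PDGFD at 0.57.

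Skeletal muscle genes were low on the ISC array, the fused array and the L3/4 control beside the adjacent-level control. MYL1, a light chain of fast muscle myosin, had levels of 0.61 on the ISC array, −1.51 on the fused array, −0.64 in the L3/4 control and 5.14 in the adjacent-level control. The last array stood far above the others, and the ratio between the first 2 was 2.12, or 1.14 with normexp. ACTN3, the fast-fibre actinin, had levels of −0.81, −2.64, −1.63 and 4.54 and a ratio of 1.83, which was 0.55 with normexp. TNNC2, fast troponin C, was at 0.92, the myosin heavy chain MYH1 at 0.89, RYR1, the calcium release channel, at 0.86 and CKM, muscle creatine kinase, at 0.14. In all, 2 of 18 measured members were at least 2-fold higher and 0 lower, beside 6.98% and 7.76% of all features. The median was 0.59, or 0.13 with normexp. Between the controls it was −4.65, and 17 of 21 were lower in the L3/4 control. The summed level of the 29 named genes was 5.22 on the ISC array, 4.59 on the fused array, 5.71 in the L3/4 control and 9.99 in the adjacent-level control. CASQ1, the calcium store protein of fast fibres, was well above background on the ISC array and not on the fused array, PPP1R3A, a glycogen-targeting subunit, the reverse. Both are among 11 of the 29 genes that were not measured on both arrays.

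Genes of calcium handling, glycolysis and smooth muscle had medians near 0. PLN, phospholamban, which restrains the calcium pump of slow and cardiac muscle, was at −1.17, with 5 of 6 probes at 2-fold and −0.87 with normexp, while CASQ2 was at −0.65 and SLN at −0.16, and the sarcoplasmic reticulum list had a median of −0.12 over 10 members. SLC2A1, the basal glucose transporter GLUT1, had levels of 0.12 on the ISC array, −1.84 on the fused array, 0.48 in the L3/4 control and −0.53 in the adjacent-level control. Only the fused array was low, its 5 probes lay from 1.86 to 2.25, and it was at 0.86 with normexp. LDHA, which makes lactate, was at 1.01, from 0.88 to 1.06 over the alternatives. GYS1, glycogen synthase, was at −1.94 (−0.86 with normexp), and GAPDH at 0.14, PKM at 0.0083 and ALDOA at 0.10. With SLC2A4 this gave 2 of 16 measured genes of glycolysis and glycogen higher and 2 lower, beside 6.98% and 7.76% of all features. The median was 0.11, where the median between the controls was −1.78. None of 7 measured contractile genes of smooth muscle and myofibroblasts reached 2-fold: MYH11 was at −0.85, ACTA2 at −0.65, CALD1 at −0.27 and TPM2 at −0.09, for a median of −0.27. The 4 measured genes of mitochondrial respiration were all under 2-fold, with a median of −0.33 and COX6A1, a subunit of the terminal oxidase, lowest at −0.70.

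**Figure D5:**
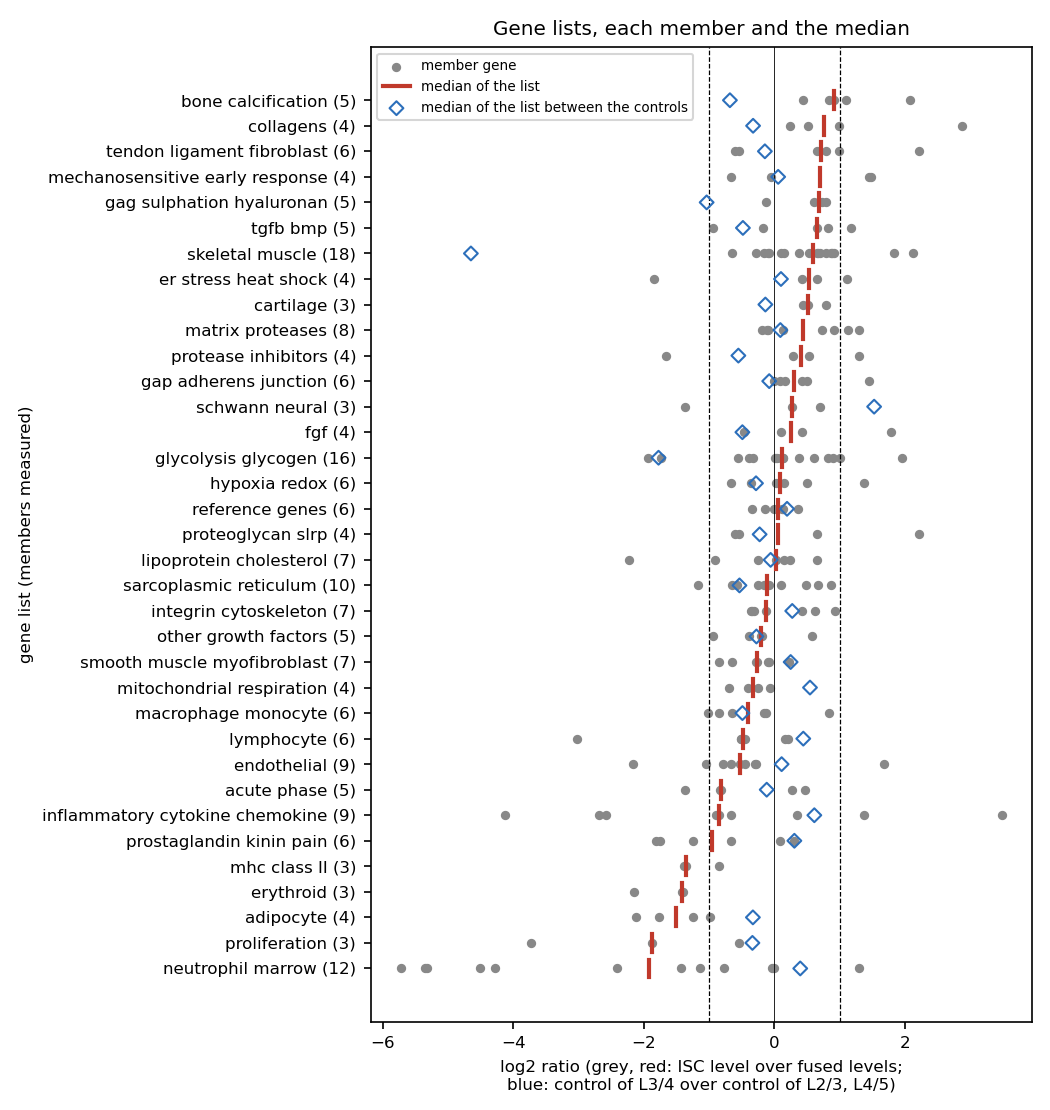
Log2 ratio of the ISC array over the fused array for each measured member (grey) of the 35 gene lists with at least 3 measured members, with the median of each list (red bar) and the median of the same list between the L3/4 control and the adjacent-level control (blue diamond, where at least 3 members were measured there). List medians run from −1.92 for neutrophil genes to 0.91 for bone and calcification genes, and the blue diamond of skeletal muscle lies at −4.65.

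Genes of junctions and the cytoskeleton gave few differences at 2-fold, while the small list linked to load gave 2 of 4. GJA1, connexin 43, the gap junction protein through which connective tissue cells share signals, had levels of 2.63 on the ISC array, 1.18 on the fused array, 0.38 in the L3/4 control and 1.85 in the adjacent-level control. The ISC array was the highest array, and its 2 probes gave 1.45 and 1.54. The other 5 measured genes of cell junctions lay from −0.01 to 0.50, for a median of 0.29. JUN, an early-response transcription factor, had levels of 2.13, 0.64, 1.31 and 1.66 and a ratio of 1.49. With GJA1, this gave 2 of 4 measured early-response and mechanosensitive genes at least 2-fold higher, beside 6.98% of all features. The median was 0.70. None of 7 measured integrin and cytoskeleton genes reached 2-fold by the brightest probe, with FLNA, filamin A, at 0.92 and ITGB1 at 0.42. ITGB3, the beta chain of the vitronectin receptor of platelets and osteoclasts, was at −0.12 by that probe, while its 3 other measured probes lay from −2.05 to −1.56.

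Few genes of proliferation, stress and nerve could be named on the array. TACC3, a protein of the mitotic spindle, had levels of −1.65 on the ISC array, 2.08 on the fused array, 0.31 in the L3/4 control and −1.71 in the adjacent-level control, a ratio of −3.73, which was −2.26 with normexp. CKS2, a partner of cyclin-dependent kinases, was at −1.87 (−1.01 with normexp) and CCNA2, cyclin A2, at −0.55. Thus 2 of 3 measured proliferation genes were at least 2-fold lower, beside 7.76% of all features, and the median was −1.87. PDIA3, a disulphide isomerase of the endoplasmic reticulum, was at 1.12 and PSAT1, an enzyme of serine synthesis, at −1.84 (−1.14 with normexp), for a median of 0.53 over 4 genes of protein folding and amino acid stress. HIF1A, the transcription factor of the response to low oxygen, had levels of 2.46, 1.09, 1.53 and 1.95 and a ratio of 1.37, and was 1 of 6 measured hypoxia and redox genes at 2-fold, with a median of 0.087. S100B, a calcium-binding protein of Schwann cells, fat cells and cartilage, was at −1.38 with all 5 probes at 2-fold, and was −0.93 with normexp, and was 1 of 3 measured Schwann cell and nerve genes at 2-fold, beside PRNP, the prion protein, at 0.70. The 6 measured reference genes lay from −0.34 for ACTB to 0.36 for PPIA, with a median of 0.0595.

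Several genes outside these lists were among the 15 highest ratios. STEAP2, a metalloreductase, had levels of 1.03 on the ISC array, −1.61 on the fused array, −0.97 in the L3/4 control and −0.70 in the adjacent-level control, and probes at 2.53 and 2.65, with 1.56 under normexp. Its relative STEAP1 had levels of 4.10, 2.14, 3.78 and 4.16. In the first the ISC array stood above all other arrays, and in the second the fused array stood below them. MOSPD2, a protein of membrane contact sites, was at 2.38, LGALS4, galectin-4, at 2.17 and SANBR, a regulator of antibody class switching, at 2.65, all 3 dim and under 2-fold with normexp. CDK14, a cyclin-dependent kinase, was at 2.12, LOC100008796 at 2.07 with 5 probes up to 2.80, RGS4, a regulator of G protein signalling, at 1.99 and CA5B, a mitochondrial carbonic anhydrase, at 1.97. For CDK14 and LOC100008796 the ISC array was the highest array, but LOC100008796 also differed by 1.84 between the controls in the same order. In the adjacent-level control RGS4 stood at 0.33 and CA5B at 2.60, above the ISC array at −0.05 and 1.93. RGS4 was at 0.90 with normexp.

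Some named genes exceeded background clearly on just 1 array of this pair, so that their difference is a bound. On the dim array, the larger of the gene's own signal and the smallest signal still well above background there was used. Of 1489 named genes, 105 were bright on the ISC array alone of this pair, 21 of them by at least 2-fold. On the fused array 46 were bright, 26 of them by at least 2-fold. More probes were well above background on the ISC array (67.9%) than on the fused array (65.0%). The smallest level so called was −3.84 on the ISC array and −3.62 on the fused array, so 105 and 46 are not directly comparable. MYBL1, a transcription factor, was at least 10.6-fold higher on the ISC array and ANXA8 at least 7.46-fold. CXADR, a junction protein that serves as a virus receptor, was at least 5.03-fold higher there and LOC103351517 at least 4.94-fold. The fused array was at least 11.8-fold higher for DSG4, a desmosomal cadherin, 9.52-fold for CTSE, the aspartic protease cathepsin E, 5.17-fold for CD1E and 4.47-fold for UCP3, a mitochondrial carrier of muscle. MYBL1, ANXA8 and LOC103351517 were well above background in both controls. MYBL1 was brighter in the L3/4 control (0.34) and the adjacent-level control (0.53) than on the ISC array (−0.21). CXADR, DSG4 and CD1E were well above background in the adjacent-level control and not in the L3/4 control, while CTSE and UCP3 were so on the fused array alone.

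The control arrays were set against each other in the same order of lumbar levels. Over 12741 features measured on all 4 arrays, the ratio of the ISC array over the fused array and that of the L3/4 control over the adjacent-level control, which share no array, correlated across features at Pearson's r = −0.122 and Spearman's rho = −0.113. Features are not independent replicates, so this is a description. Of 878 features at least 2-fold higher on the ISC array, 90 (10.3%) were also 2-fold higher in the L3/4 control, which is 8.73% of the 1031 higher there. Another 154 (17.5%) were 2-fold apart in the opposite direction between the controls. Of 820 features at least 2-fold lower on the ISC array, 85 (10.4%) were also lower in the L3/4 control, which is 7.19% of the 1182 lower there, and 149 (18.2%) were opposite. Between the controls 8.39% of features were higher and 9.19% lower by at least 2-fold, or 17.6% in either direction, beside 14.7% between the ISC and the fused arrays. At this size the arrays compared here thus differed in no larger a share of features than the controls did.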

How the data were processed

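The deposited values are linear spot intensities. Per the file headers, the processed signal has local background removed and a spatial trend taken out, and arrays are not scaled to each other. The submitters' processing notes name Agilent Feature Extraction 12.0.3. The authors' deposited value table holds intensities equal to the processed signal times 1 factor per array (medians of 516, 442, 498 and 504 for the ISC array, L3/4 control, fused array and adjacent-level control). How the factors were chosen is unknown, while direction and linear scale are known.

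Control spots and 3 to 7 outlier spots per array were dropped, no spot was saturated, and log2 of the deposited signals was averaged per probe and set against each array's 75th percentile (signals of 93.7, 53.4, 85.4 and 72.7 in that order). Between 59.6% and 67.9% of probes were well above background. Replicate spots of a probe had a median SD of 0.098 to 0.13 on the log2 scale, which is technical. RefSeq accessions were named through a RefSeq table of mOryCun1.1, used for names alone. This named 3792 of 43603 probes (8.7%) and 1489 genes. A gene is represented by its probe with the highest mean over the 4 arrays. For 1537 transcripts with 2 probes, the ratios of both correlated across transcripts at r = 0.803. Given a first probe at 2-fold, its partner shared the sign in 93.3% and reached 2-fold in 59%.

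The 37 lists hold 898 symbols, of which 249 were named and 191 measured. Members and lists were chosen with earlier results of these data known. Named are the 15 highest and 15 lowest genes, up to 3 members at each end of a list, all measured members of 10 lists, and the 5 largest bounds each way. A few of these genes are omitted to save space, and a few results are not given. Genes outside this rule were named after their values were seen. Alternatives, run with limma 3.58.1 in R 4.3.3 where they needed it, were quantile normalization, cyclic loess, median centring, normexp with an offset of 50 on the median spot signal (the files used here hold no mean), other filters, the mean over probes and the authors' table. The ratio code was tested on simulated data.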

Additional observations from a re-analysis of the deposited data

How the results depend on the processing

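The counts at 2-fold changed most with normexp and with looser filters on dim probes. Against 1017 higher and 1130 lower features, normexp gave 254 and 448 (36.2% of calls higher), a filter of well above background on at least 1 array 1859 and 1733 (51.8%), and no filter 2379 and 2269 (51.2%). The share of calls that were higher, 47.4% (95% Wilson interval from 45.3% to 49.5%, counting error only), was 39.3% with cyclic loess, 44.3% with median centring, 51.7% with well above background on all 4 arrays and 51.5% in the authors' value table, and it stayed in the interval with quantile normalization and the mean over probes. The median of all features moved from 0.049 to between −0.039 with cyclic loess and 0.097 in the authors' table. Of 207 genes and 35 list medians recomputed, none that was called changed sign under the 9 alternatives. With the filter on all 4 arrays just 181 of the genes and 33 of the medians had a value, those of erythroid and MHC class II genes being lost. Of comparisons of single genes with the main value, 34 fell below 2-fold and 19 reached it, and of those of list medians 3 fell below it, all with normexp: the neutrophil list at −0.81, MHC class II at −0.80 and fat cells at −0.89. The bone and calcification median reached 2-fold with quantile normalization (1.0023) and with the filter on at least 1 array (1.0016). The cause of these shifts was not tested. No paired analysis was possible because each group has 1 array and the labels give no replicate numbers, and for the same reason no array could be left out. Of the 34 values of single genes that fell below 2-fold, 29 did so with normexp.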

Other observations

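Accessions that begin with AY made up 227 (1.56%) of the measured features, and 112 of them (49.3%) were at least 2-fold lower on the ISC array, against 7.76% of all features. Just 1 was at least 2-fold higher. Their median level was −1.66 on the ISC array, −0.073 on the fused array, −1.30 in the L3/4 control and −1.57 in the adjacent-level control, so that the fused array stood above the other 3 arrays. They supplied 85 (34.3%) of the features at least 8-fold lower. Of 75 measured accessions that begin with AF, 37 (49.3%) were at least 2-fold lower and 3 higher. Among Ensembl transcripts 586 of 7761 (7.55%) were lower. The files used here do not pair these accessions with genes, and they can stand for copies of the same transcript.

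Among the named genes called at 2-fold, 93 of 167 rested on 1 measured probe. Of the 74 with several measured probes, 6 had a probe of the opposite sign.

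Pearson's r over 23050 probes well above background on all 4 arrays was 0.922 between the ISC array and the fused array, 0.920 between the controls, 0.927 between the ISC array and the L3/4 control, 0.955 between the ISC array and the adjacent-level control, and 0.893 to 0.899 between the fused array and either control. The share of features at 2-fold was 16.5% in the dimmest of 3 equal bins of measured features, 15.4% in the middle bin and 12.3% in the brightest.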
